A study of Mus musculus with 4 samples.

Results

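The 10 genes described here belong to the Atf4 stress response and were followed in cultured mouse lung cells with and without depletion of the transcription factor c-Myc. They are Atf4, the related factors Atf5, Ddit3 and Cebpg, and 6 of their target genes, Trib3, Chac1, Asns, Sesn2, Ddit4 and Vldlr. They were picked by gene symbol out of 12,589 genes that had a tested probe set of their own, with the Myc-depleted minus control differences of these arrays already known. Those differences are therefore a description of the 10 genes, and no p-value is given for any of them. On the array the 10 genes are read by 23 of 45,037 probe sets, short groups of probes that each report a transcript, and 18 of the 23 were bright enough to be tested.

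RNA from 2 Myc-depleted and 2 control samples was hybridised to 1 Affymetrix mouse expression array each. All 4 samples are bronchoalveolar stem cells (BASCs) of ICR mice, sorted from lungs of mice aged 4 to 6 weeks as CD31-, CD45-, CD34+ and Sca-1+ cells and first grown over irradiated embryonic fibroblasts of the mouse. The study describes both such feeder cells and dishes coated with collagen for further culture, and which applied to the arrays is not stated. The Myc-depleted cells carried a lentiviral short hairpin RNA against c-Myc and were kept under puromycin as stable lines, while the control cells are labelled as control and described in the study as wild type. The study used 2 such hairpins and does not state which was on the arrays, so the 2 Myc-depleted arrays may share a hairpin or differ in it. It is not stated outright that the cells on the control arrays had no control virus or puromycin, so depletion, infection and selection cannot be told apart. Separate cultures behind the 2 arrays of a group are not stated, so any p-value measures array-to-array spread alone, possibly technical. All values below are log2 expression values as deposited, differences are Myc-depleted minus control, and a difference of -1 is a halving.

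Atf4 is the central transcription factor of the integrated stress response. Kinases that sense amino acid shortage, unfolded proteins, haem shortage or viral RNA phosphorylate the initiation factor eIF2, which slows general translation while the Atf4 messenger is translated more, because of short reading frames upstream of its coding sequence. Atf4 protein then pairs with other basic leucine zipper proteins and switches on genes for amino acid transport and synthesis, tRNA charging, redox balance and, when stress lasts, cell death. Much of its control thus lies in translation, which an array does not read.

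Atf4 binds a composite site called the C/EBP-ATF response element. Its core was searched as TGATGNAA on both strands in the RefSeq promoter windows of mouse assembly GRCm38.p6, which run from 250 bases before to 50 bases after each annotated start. All 10 genes matched, with 12 windows, since Atf5 and Vldlr have 2 starts each. The core was present once each in 4 of the 10 genes, Chac1, Asns, Vldlr and Trib3, and in 4.51% of the 27,025 genes with a window. The stretches around these matches are shown because Atf4 is known to act through this element. As the 10 genes were chosen on their differences, nothing is read from which of them hold it. Each is written 5′ to 3′ on the strand of its gene, with the match in capitals, and the reverse complement of the core reads TTNCATCA.

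Chac1, chr2:119351033-119351072, plus strand, match from -193 to -186 of the start: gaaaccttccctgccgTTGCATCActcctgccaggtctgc
Asns, chr6:7693210-7693249, minus strand, match from -23 to -16: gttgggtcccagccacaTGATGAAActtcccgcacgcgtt
Vldlr, the second start, chr19:27216804-27216843, plus strand, match from -200 to -193: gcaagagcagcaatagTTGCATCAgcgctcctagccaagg
Trib3, chr2:152344031-152344054, minus strand, match from 15 to 22 bases after the start: gctcaggtTTACATCAgccgggcg

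The E-box CACGTG, the site of Myc and its partner Max, was searched in the same windows and was in 0 of the 10 genes and in 8.09% of all genes with a window. A match describes letters in a window and not a bound site, and no match says nothing about sites elsewhere.

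**Figure D1:**
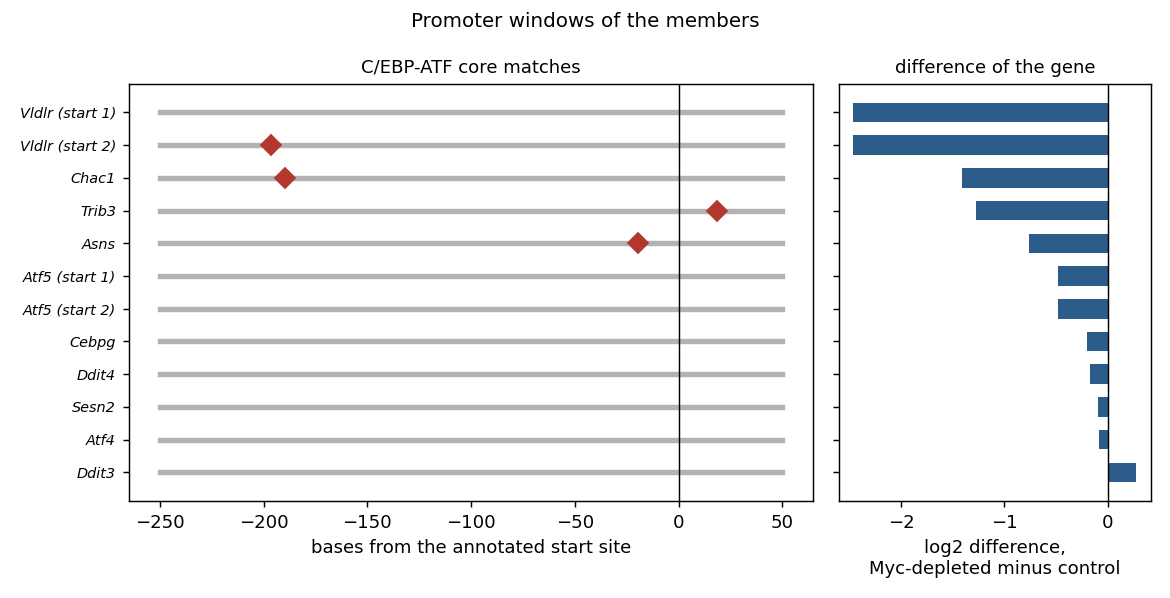
Left, positions of the C/EBP-ATF core (red diamonds) in the 12 promoter windows (grey bars), in bases from the annotated start site; right, the Myc-depleted minus control log2 difference of the gene, drawn again for the second start of Vldlr and Atf5. Matches stand in 4 of the 12 windows, 3 before the start and 1, in Trib3, after it; the genes were chosen on the differences at right, so the pairing is no test.

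Before the 10 genes are described, some facts about the arrays bear on them. Myc itself, read by 1 probe set, was 8.35 and 8.50 on the Myc-depleted arrays and 9.21 and 9.69 on the control arrays, a difference of -1.02 that left 49.2% of the control level (limma unadjusted p = 0.00765, adjusted p = 0.363). No gene passed a Benjamini-Hochberg adjusted p of 0.05 in limma, 0% of 12,589, whereas 5.23% were lower and 6.96% higher in Myc-depleted cells at an unadjusted p under 0.05. The expression of markers followed the label of the cells only in part. Pecam1 (CD31) and Ptprc (CD45), the markers sorted against, were below the brightness limit of log2 5.08 on all 4 arrays. Of 10 lung epithelial markers 3 were above it. Sftpc and Scgb1a1, the markers of the alveolar and club cells that BASCs combine, were below it on all 4 arrays, as was the sorting marker Cd34. No probe set named the other sorting marker, Sca-1, alone. By staining, the study found both proteins, SP-C and CCA, in most colonies of passaged cells, and the arrays read RNA. Of 10 fibroblast and mesenchymal markers 9 were above it, with a mean log2 value of 10.4 and 10.1 on the Myc-depleted arrays and 10.1 and 10.3 on the control arrays. Single markers differed more than that mean, with Pdgfra at 1.23, Dcn at 0.67 and Thy1 at -1.26, and Epcam, among the epithelial ones, at 0.65. The poly-A spike-ins, RNAs added in the laboratory, had a 3′ minus 5′ difference of 3.62 and 2.05 on the Myc-depleted arrays and of 2.15 and 3.24 on the control arrays, so 1 array of each group was high. The same arrays were high for the cells' own RNAs read in this way. Actin had 1.95 and 0.69 on the Myc-depleted arrays and 0.60 and 1.36 on the control arrays. Gapdh had 0.87 and -0.11 on the Myc-depleted arrays and -0.13 and 0.31 on the control arrays. The part of these features in the values below was not tested.

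As a group the 10 genes lay lower in Myc-depleted than in control BASCs, and in such bulk RNA fewer cells of a type and less RNA per cell cannot be told apart. Their median difference was -0.34, while the median of all 12,589 genes was 0.02 with quartiles of -0.13 and 0.17. The difference was negative for 9 of the 10 and positive for Ddit3, where 46% of all genes had a negative difference. Both Myc-depleted arrays were below both control arrays for 5 genes (Cebpg, Trib3, Chac1, Asns and Vldlr), as they were for 20.8% of all genes. Both were above both controls for 0 of the 10, against 26.6% of all genes. Over 2-fold lower were 3 of the 10, Vldlr, Chac1 and Trib3, beside 0.771% of all genes. Since the genes were chosen on this contrast, nothing is read from these shares. The median also leaned on single arrays, and was -0.63 without control 1.

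**Figure D2:**
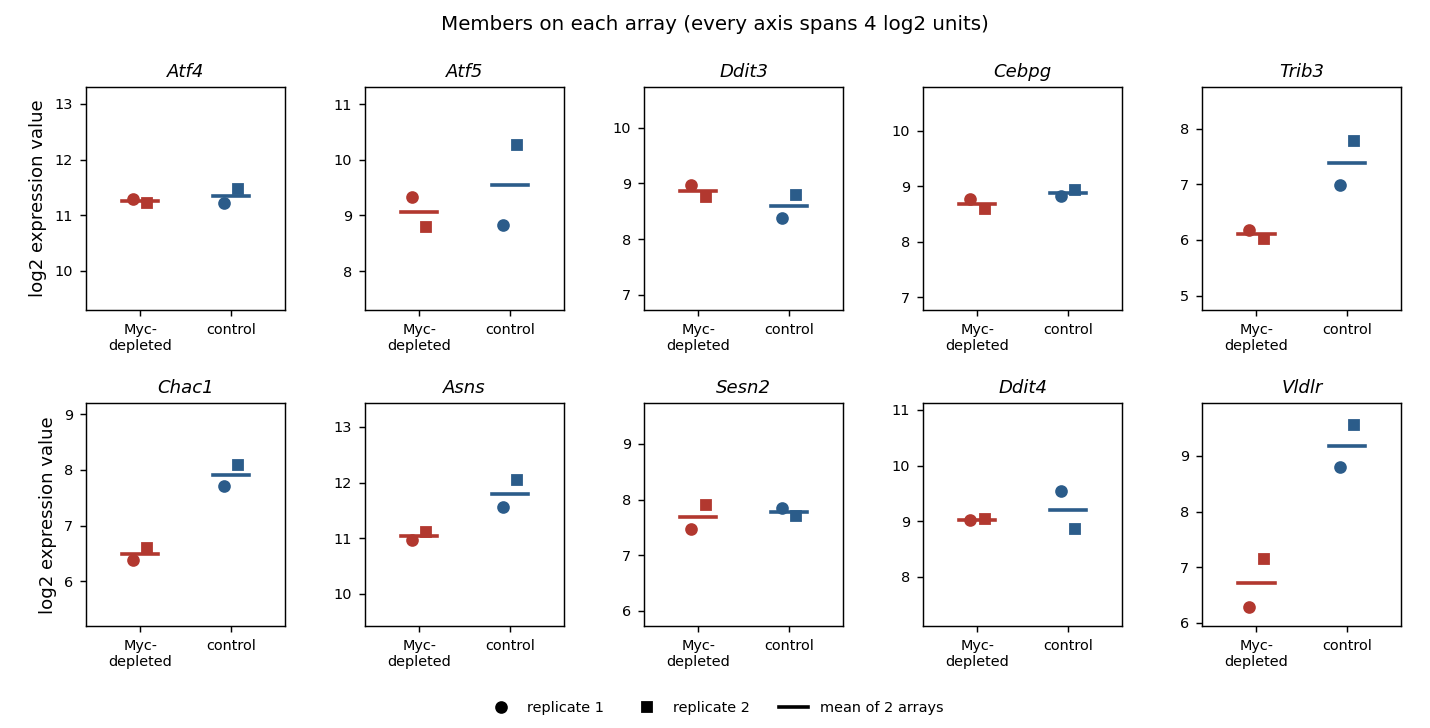
Log2 expression values of the 10 genes on each array, Myc-depleted (red) left of control (blue), with replicate 1 as circles, replicate 2 as squares and group means as lines; every axis spans 4 log2 units. The groups stand apart for Vldlr, Chac1, Trib3, Asns and, narrowly, Cebpg, and overlap for the other 5 genes.

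The leucine zipper factors themselves differed little or unevenly. Atf4 was 11.28 and 11.22 on the Myc-depleted arrays and 11.22 and 11.46 on the control arrays by its brightest probe set, a difference of -0.09. On that probe set the groups overlapped, since control 1 lay no higher than the Myc-depleted arrays. A second Atf4 probe set of similar brightness read 11.11 and 11.07 on the Myc-depleted arrays and 11.36 and 11.60 on the control arrays, a difference of -0.39, with both Myc-depleted arrays below both controls. The probe sets thus placed Atf4 differently in the comparison, and both showed a bright signal in both groups. The brightest set is one whose name marks probes that also match other transcripts, as are the sets that represent Trib3 and Vldlr. One more probe set, a dim one, was not tested and read 4.75 and 4.50 on the Myc-depleted arrays and 4.64 and 4.64 on the control arrays.

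Atf5, a close relative of Atf4 that is also controlled through translation, was 9.33 and 8.78 on the Myc-depleted arrays and 8.82 and 10.26 on the control arrays. Its mean difference of -0.48 rested on control 2, as control 1 lay among the Myc-depleted arrays. The 2 control arrays differed by 1.44, and only 0.0715% of all genes had a larger gap between them. Without control 2 the sign turned, and the difference was 0.24.

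Ddit3, also called Chop, is the leucine zipper factor tied to cell death under lasting stress. It was 8.98 and 8.75 on the Myc-depleted arrays and 8.39 and 8.79 on the control arrays, a difference of 0.28. It was the only one of the 10 genes with a positive difference, and its groups overlapped. Its second probe set differed by 0.05, with the groups overlapping as well.

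Cebpg, a C/EBP protein that pairs with Atf4 on amino acid response genes, was 8.77 and 8.58 on the Myc-depleted arrays and 8.82 and 8.93 on the control arrays. The difference of -0.20 was small, and the nearest arrays of the groups were 0.05 apart. The other probe sets of Cebpg differed by -0.30, without overlap, and by -0.20, with overlap.

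Among the target genes, Trib3, Chac1, Asns and Vldlr had groups that stood apart, and Sesn2 and Ddit4 had groups that overlapped. Trib3, a pseudokinase that binds Atf4 and dampens it in a feedback loop, was 6.18 and 6.02 on the Myc-depleted arrays and 6.98 and 7.78 on the control arrays. Its mean was 6.10 ± 0.11 in Myc-depleted cells and 7.38 ± 0.56 in control cells (SD, n = 2 each), a difference of -1.28 or a 2.43-fold lower level. The nearest arrays of the groups were 0.80 apart, about as far as the control arrays were from each other. Its second probe set read 5.88 and 5.58 on the Myc-depleted arrays and 6.87 and 7.45 on the control arrays, a difference of -1.43. Both probe sets were dim in Myc-depleted cells, beside the brightness limit of log2 5.08.

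Chac1, an enzyme that breaks down glutathione, was 6.38 and 6.59 on the Myc-depleted arrays and 7.71 and 8.09 on the control arrays. Its mean was 6.49 ± 0.15 in Myc-depleted cells and 7.90 ± 0.27 in control cells (SD, n = 2 each). The difference of -1.41, 2.66-fold lower, was wide beside the replicate spread, with 1.12 between the nearest arrays. Chac1 has 1 probe set, so no second reading bears on it. Among all 12,589 genes it ranked 39 from the lowest difference, and Trib3 ranked 51.

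Asns, asparagine synthetase, which makes asparagine from aspartate and glutamine, was the brightest target gene. It was 10.98 and 11.10 on the Myc-depleted arrays and 11.56 and 12.05 on the control arrays, with means of 11.04 ± 0.09 in Myc-depleted cells and 11.80 ± 0.35 in control cells (SD, n = 2 each). The groups did not overlap, with 0.45 between their nearest arrays, and the difference of -0.76 is a 1.70-fold lower level. The second probe set read 10.77 and 10.71 on the Myc-depleted arrays and 11.20 and 11.72 on the control arrays. Both probe sets gave the same order of the groups at high brightness.

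Vldlr, the receptor for very low density lipoprotein and for the guidance protein reelin, had the lowest difference of the 10 genes. It was 6.28 and 7.14 on the Myc-depleted arrays and 8.80 and 9.55 on the control arrays, with means of 6.71 ± 0.61 in Myc-depleted cells and 9.17 ± 0.53 in control cells (SD, n = 2 each). The difference was -2.46, a 5.51-fold lower level, and ranked 4 from the lowest of all genes. The replicates of each group were themselves far apart, yet 1.66 separated the nearest arrays of the groups. A second tested probe set read 4.34 and 5.22 on the Myc-depleted arrays and 6.74 and 7.70 on the control arrays, a difference of -2.44. Its Myc-depleted mean of 4.78 lay under the brightness limit of log2 5.08, so the size of that difference is not well measured. The other 4 Vldlr probe sets were too dim to be tested and differed by between -1.17 and -0.26, 3 of them without overlap.

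Sesn2 and Ddit4 are stress-induced inhibitors of the growth kinase complex mTORC1, Sesn2 as a leucine sensor and Ddit4 through the Tsc proteins. Sesn2 was 7.47 and 7.90 on the Myc-depleted arrays and 7.84 and 7.70 on the control arrays, a difference of -0.09. Its second probe set had the other sign, 0.18, and the groups overlapped on both. Ddit4 was 9.02 and 9.04 on the Myc-depleted arrays and 9.55 and 8.85 on the control arrays. Its difference of -0.17 was smaller than the 0.69 by which the control arrays differed, and the Myc-depleted arrays lay between them.

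**Figure D3:**
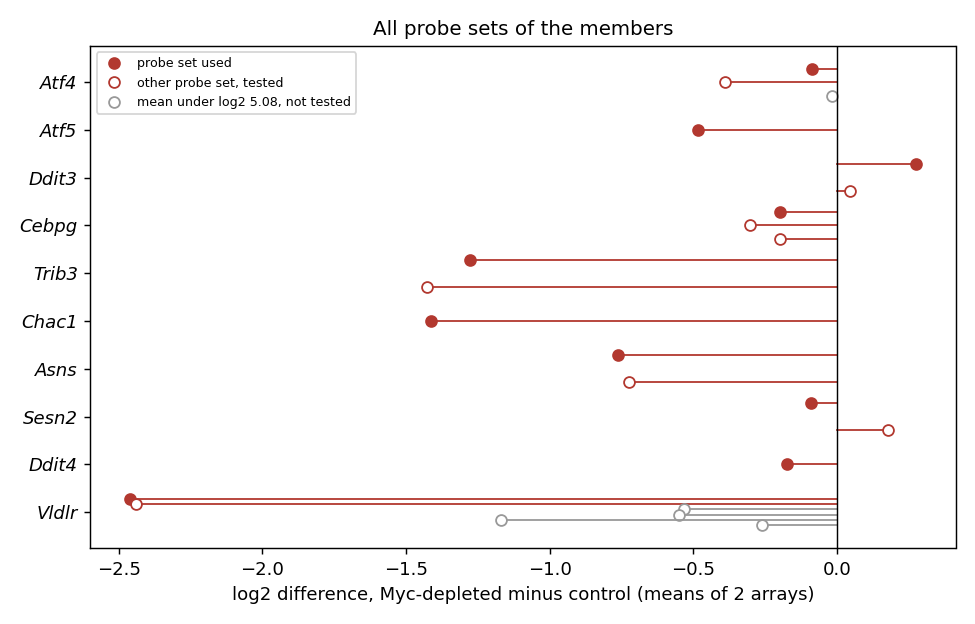
Myc-depleted minus control log2 difference of every probe set of the 10 genes, filled where the probe set represents the gene, open red for other tested sets and open grey for sets below log2 5.08. Points lie left of 0 for 20 of the 23 probe sets; the others belong to Ddit3 and Sesn2.

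Over all 23 probe sets, 20 had a negative difference. Among the 18 tested sets 15 had one, as did 50.5% of all 27,022 tested probe sets. Both Myc-depleted arrays were below both controls for 10 of the 18, and for 18.5% of all tested sets, and above both for 0 of the 18, and for 22.5% of all. Since the genes were chosen on this contrast, nothing is read from these shares either. Probe sets of 1 gene read the same transcripts, so they are repeat readings and not replicates.

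The differences varied with which arrays were set against each other. Myc-depleted 1 minus control 1 gave a median of -0.45 over the 10 genes, with 7 lower. Myc-depleted 2 minus control 1 gave -0.35, again with 7 lower. Against control 2 the medians were -0.58 for Myc-depleted 1 and -0.65 for Myc-depleted 2, with 8 lower each. Over all genes the median of each of the 4 comparisons was 0.02 or 0.03. Vldlr, Chac1, Trib3, Asns and Cebpg were lower in all 4 comparisons, whereas Atf4, Atf5, Ddit3, Sesn2 and Ddit4 changed sign among them.

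**Figure D4:**
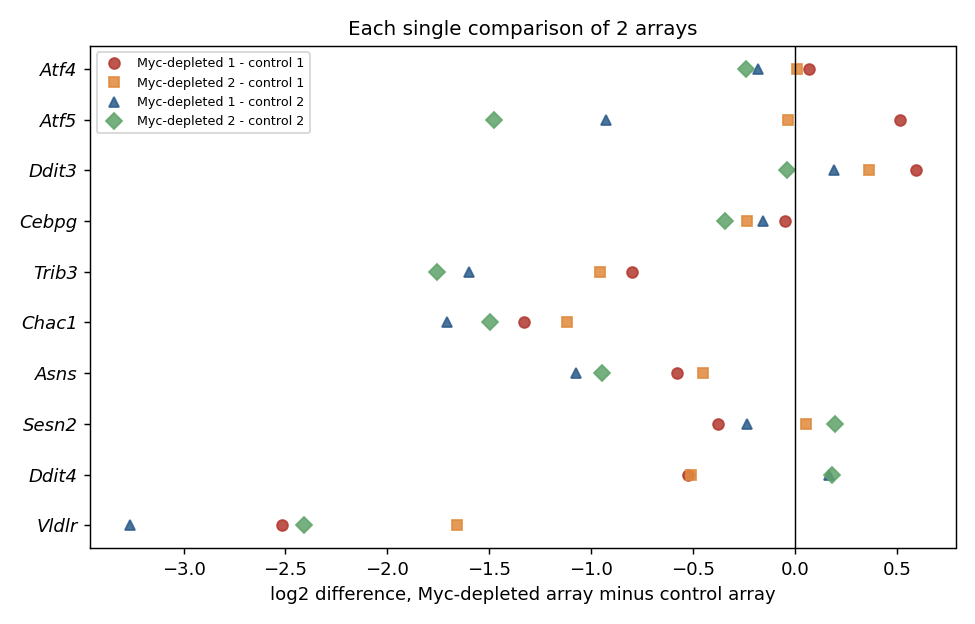
Log2 difference of each of the 10 genes in the 4 comparisons of 1 Myc-depleted with 1 control array. The points of Vldlr span -3.26 to -1.66 and stay left of 0, while those of Atf5 run from -1.48 to 0.51, on both sides of 0 against control 1 and left of 0 against control 2.

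The control arrays themselves differed in these genes. Control 2 was higher than control 1 for 8 of the 10, with a median gap of 0.39, whereas the median over all genes was 0.00. In size alone, the median gap between the control arrays was 0.449 for the 10 genes and 0.132 for all genes. Between the Myc-depleted arrays it was 0.197 for the 10 genes and 0.185 for all genes. Control 2 was also the control array with the larger 3′ minus 5′ difference of the spike-ins, and Myc-depleted 1, which had the largest, was the higher Myc-depleted array for 5 of the 10 genes (Atf4, Atf5, Ddit3, Cebpg and Trib3) and the lower for the other 5. The part of this difference in the values was not tested.

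By pattern over the 4 arrays, with each gene centred on its own mean, the 5 genes nearest to Atf4 were Tiam2, Dyrk1a, Sorcs3, Fam117b and Trmt10a. Their Euclidean distances from it were between 0.0205 and 0.0295. Atf4 moved little, and 3,043 genes lay within 0.25 of it, so many genes shared so flat a pattern.

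Genes around the 10 were described through 14 lists of related genes, in which 232 of 255 listed genes were tested. None of the 232 passed the adjusted threshold in limma, where the smallest adjusted p was 0.282, and 37 had an unadjusted p under 0.05, as did 12.2% of all genes. In the one-factor analysis of variance that the methods name, 0 passed after adjustment and 22 had an unadjusted p under 0.05, as did 11.4% of all genes. The genes below are thus given as values, and unless stated otherwise the 4 with the smallest p in each list are those named.

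Other known Atf4 target genes, 41 tested, had a median difference of -0.21, and 29 were negative, as were 46% of all genes. The median was -0.08 without control 2 and -0.35 without control 1. Both Myc-depleted arrays were below both controls for 19 of them and above both for 4, where 20.8% and 26.6% of all genes did so. At an unadjusted limma p under 0.05, 6 were lower and 1 higher, as were 5.23% and 6.96% of all genes. Slc7a5, the large neutral amino acid transporter, was 7.97 and 7.84 on the Myc-depleted arrays and 8.72 and 9.55 on the control arrays, a difference of -1.22. Gpt2, which makes alanine, differed by -0.94, with a second probe set at -0.39. Atf3, a stress-induced leucine zipper factor, was 5.17 and 5.23 on the Myc-depleted arrays and 6.48 and 5.83 on the control arrays, a difference of -0.95. Cars, the tRNA synthetase for cysteine, differed by -0.70 on its brightest and -0.20 on another probe set. The list was not uniform, since Klhl24 and Cebpb, named here after their values were seen, differed by 0.66 and 0.58. Another Klhl24 probe set differed by -0.05, and the groups of Cebpb overlapped.

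The serine and one-carbon enzymes under Atf4 control, 6 tested, were all negative with a median of -0.73, and 5 had both Myc-depleted arrays below both controls, as 20.8% of all genes did. Phgdh, the first enzyme of serine synthesis, was 10.03 and 10.30 on the Myc-depleted arrays and 11.14 and 11.12 on the control arrays, a difference of -0.96. Mthfd2, Psat1 and Shmt2, enzymes of mitochondrial folate metabolism and of serine and glycine synthesis, differed by -1.13, -0.76 and -0.47.

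Upstream of Atf4, the kinases, phosphatase subunits and exchange factor of eIF2 had a median of -0.12 over 23 genes. A negative difference was found for 16 of them, as for 46% of all genes. Abce1, a ribosome recycling factor, differed by -0.51, Eif2s2 by -0.33, Eif2b5 by -0.31 and the adaptor Nck2 by 0.25. The regulators of Atf4 protein stability, 7 tested, had a median of -0.14. Among them the prolyl hydroxylase Egln3 differed by -0.44, the methyltransferase Prmt1 by -0.34 and the acetyltransferase Ep300 by 0.14. The ubiquitin ligase subunit Btrc differed by -0.15, while most but not all of its 4 other tested probe sets lay between 0.01 and 0.40. In the branch of endoplasmic reticulum stress led by Atf6 and Xbp1 the 34 genes tested had a median of -0.06. Of these 18 were negative, as were 46% of all genes. Both Myc-depleted arrays were below both controls for 11 of the 34 and above both for 4, where 20.8% and 26.6% of all genes did so. Herpud1 and Creld2 differed by -0.49 and -0.36, and the quality control lectin Os9 by 0.64. Derl1 differed by 0.32, and among its 3 other tested probe sets those of opposite sign were at -0.01 and -0.23.

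Paralogs of the 10 genes had a median of 0.06 over 18 genes, with 8 negative. Sesn1, the paralog of Sesn2 and a p53 target, was 9.17 and 9.16 on the Myc-depleted arrays and 8.29 and 8.49 on the control arrays, a difference of 0.77. Cebpa, the C/EBP factor of fat and myeloid cells, was 7.95 and 7.31 on the Myc-depleted arrays and 6.30 and 6.33 on the control arrays, a difference of 1.31. Lrp8, the other reelin receptor, was 7.42 and 7.14 on the Myc-depleted arrays and 7.98 and 8.35 on the control arrays. Its difference of -0.88 had the sign of Vldlr, and another of its probe sets differed by -0.28.

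The leucine zipper partners of Atf4 and Ddit3 had a median of 0.17 over 16 genes, and 11 were positive. Besides Cebpa and Atf3, Maf differed by 0.85, with another probe set at 0.30, and Jdp2 by 0.47. In the mTORC1 pathway, on which Sesn2 and Ddit4 act, 26 genes had a median of 0.08. Among them Castor2 differed by 0.70 (another probe set by 0.11), Tsc1 by 0.45, Eif4ebp2 by 0.33 and Rraga by -0.39. The lipoprotein and reelin partners of Vldlr had a median of 0.16 over 8 genes. There Lpl, the lipase that works with Vldlr on lipoproteins, was 11.98 and 11.38 on the Myc-depleted arrays and 9.95 and 9.99 on the control arrays, a difference of 1.71. Lrpap1, a chaperone of these receptors, differed by 0.43, and the sorting nexin Snx17 by 0.22.

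Lists that share single genes or functions with the 10 gave mixed values. Over 20 hypoxia targets, to which Ddit4 is related, the median was -0.17 and 15 were negative, as were 46% of all genes. Both Myc-depleted arrays were below both controls for 10 of the 20 and above both for 3. The shares of all genes were 20.8% and 26.6%. Pfkfb4 and the glucose transporter Slc2a1 differed by -0.55 and -0.42, while Adm differed by 0.56. Over 19 p53 targets the median was 0.01, with Plk2 at -0.91, Polk at -0.29 and Ddb2 at 0.36. Glutathione genes around Chac1, 13 tested, had a median of -0.14 and no common sign, with Dpep1 at -0.80 and Gsr at -0.72 beside Gclm at 0.56 and Gss at 0.54. The 13 enzymes of asparagine, aspartate and glutamine had a median of -0.11, with Ppat at -0.63, Got1 at -0.42 and Ctps2 at 0.30. Myc and its partners, 12 tested, had a median of 0.02, and the Myc antagonists Mxd4 and Mxd1 differed by 0.47 and 0.32 and Mlx by 0.19, with another Mlx probe set at -0.24.

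**Figure D5:**
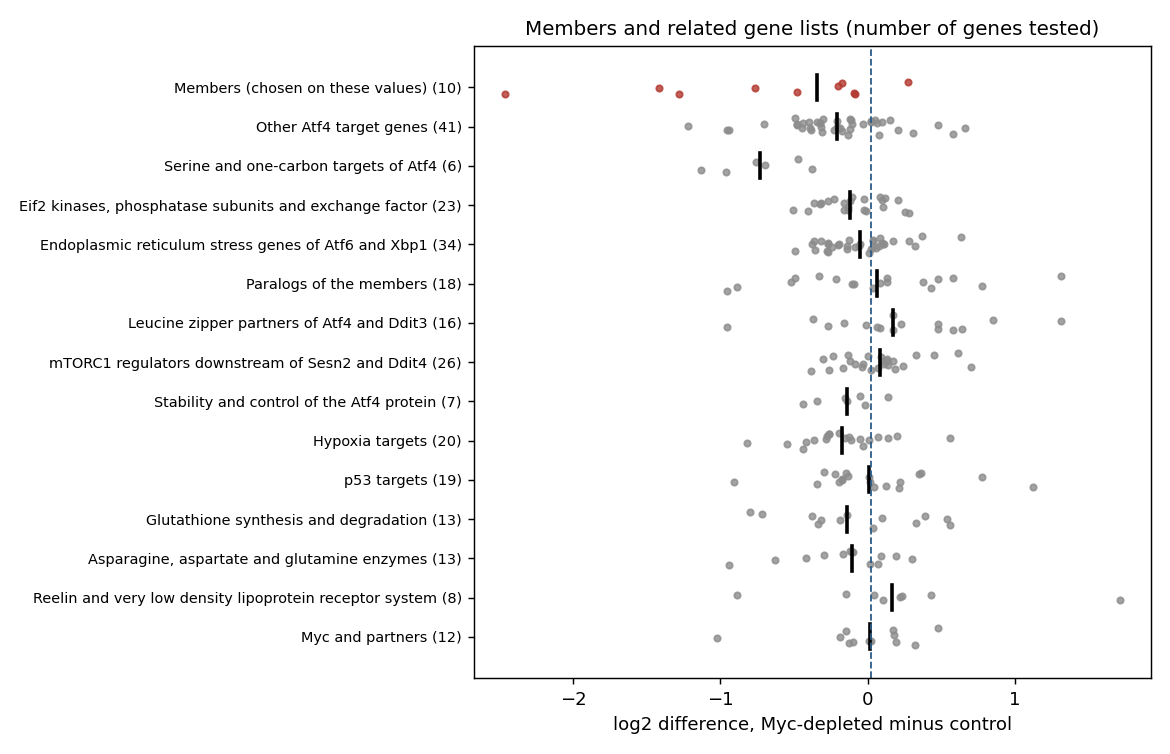
Myc-depleted minus control log2 difference of the 10 genes (red, chosen on these values) and of the tested genes of the 14 related lists (grey points), with the number tested in brackets, the list median as a black bar and the median of all genes as a dashed line. The medians of the serine and one-carbon enzymes (-0.73) and of the other Atf4 targets (-0.21) lie farthest left among the 14 lists. Those of eIF2 genes (-0.12), asparagine enzymes (-0.11), hypoxia targets (-0.17), glutathione genes (-0.14), Atf4 stability genes (-0.14) and Atf6 and Xbp1 genes (-0.06) also lie left of the dashed line. Those of paralogs and leucine zipper partners lie to its right.

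The promoter core was then set against the differences of other genes, a comparison chosen after the values of the 10 genes were seen. The lists and the core were also chosen with earlier results of these data known, so nothing is read from a split of a list by the core. Of the other Atf4 targets, 31 had a window, and the core was in 11 of them. Both Myc-depleted arrays were below both controls for 7 of these 11, named here after their values were seen (Aars, Atf3, Gars, Herpud1, Iars, Tars and Yars) and for 5 of the 20 without it. A negative difference was found for 10 of the 11 and for 11 of the 20. In the serine and one-carbon enzymes the core was in 0 of the 5 with a window and all 5 were lower without overlap. Across all other tested genes with a window the medians were alike, with a median difference of 0.02 for the 262 genes that hold it and 0.02 for the 9,915 that do not. Both Myc-depleted arrays were below both controls for 19.5% of the 262 genes and 20.3% of the 9,915.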

How the data were processed

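The authors deposited log2 values, normalized in Partek 6.4, with 1 column per array. Their methods name Robust Multichip Average, the submitters' processing notes GCRMA, and which was used was not settled here. It matters most for dim probe sets.

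Values were used as deposited. Of 45,101 probe sets, 64 controls were left out, and the 27,022 with a mean over the 4 arrays at or above the 40th percentile (log2 5.08) were tested in R 4.3.3 with limma 3.58.1 (lmFit and eBayes), first tried on simulated data. Genes were named from the platform annotation, in which 34,945 probe sets have 1 symbol, 932 several and 9,160 none. Each gene is represented by its brightest tested probe set, among those naming it alone. Arrays of 2 per group limit the precision. The 10 genes, the lists and the motifs were chosen with earlier results of these data known. Named were all 10 genes, Myc, up to 4 genes with the smallest unadjusted p per list, the 5 nearest to Atf4, and markers of cell types; others are marked in the text as chosen after their values were seen. Alternatives covered the filter, scaling, a floor, the variance model, the methods' ANOVA, another probe set for a gene, a replicate block and leaving out each array. The same-numbered arrays of the groups were not paired by the labels. Proteins were not analysed here.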

Additional observations from a re-analysis of the deposited data

How the results depend on the processing

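Under every planned filter, scaling, floor, variance model and test, and without each array in turn, limma and the methods' ANOVA called 0 probe sets after adjustment. Without adjustment, 2,726 probe sets had p under 0.05 in limma and 2,521 in the ANOVA. With the replicate number as a block, limma also called 0. The median difference of the 10 genes was -0.34 there by construction, since in this balanced design the block leaves group differences unchanged. The replicate 2 minus 1 differences of the groups correlated at -0.77 over the tested probe sets. A crossed replicate block, chosen after seeing the data, called 21 probe sets, 14 higher and 7 lower in Myc-depleted cells.

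The median of the 10 genes ran from -0.44 to -0.32 over the other scalings, filters and probe set choices, and from -0.63 (without control 1) to -0.26 (without Myc-depleted 2) with 1 array left out; it was -0.50 without Myc-depleted 1. The number lower on both Myc-depleted arrays was 5 under each planned scaling and probe set choice. With 1 array left out, a setting chosen after seeing the data, it was 6 to 7. That count could only stay or rise, since fewer arrays have to stand in order, so nothing is read from it. Vldlr, Chac1, Trib3, Asns, Cebpg and Ddit3 kept their signs throughout, with Vldlr between -2.89 and -2.03, Chac1 between -1.60 and -1.23, Trib3 between -1.68 and -0.88 and Asns between -1.01 and -0.52. Atf4 (-0.39 to 0.04), Atf5 (-1.20 to 0.24), Ddit4 (-0.52 to 0.17) and Sesn2 (-0.31 to 0.18) did not. The median of the other Atf4 targets lay between -0.35 and -0.08 without each array in turn. Signal near background limits the readings of Trib3 and Atf3 in Myc-depleted cells, of the second tested Vldlr probe set and of 5 untested probe sets of Atf4 and Vldlr.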
